A study of Mus musculus with 20 samples.

Results

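Genes of the hepatic acute phase response and of interleukin-6 (IL-6) signalling were followed in mouse liver across 20 animals. A list of 35 genes was taken by symbol, and each was read from the probe set with the highest mean among those annotated to that gene alone. Of the 35 genes, 34 had such a probe set among 18193 named genes, and 33 lay above the filter on low values and were tested with 11728 genes in all. Lcn2 was measured but lay under that filter (mean level 6.46, filter 6.505), and Trf was not used here because its probe set names another gene as well. The mice were male C57BL/6J animals, an inbred strain, bought at 3 weeks of age and 8 weeks old at sampling. One group of 10 ate feed with 45 kcal% fat and 0.05% MSXH, a maple syrup extract, for 4 weeks. The other 10 (HFD) ate the same 45 kcal% fat feed without extract. All 20 had an acclimation week on feed with 10 kcal% fat, and all were fasted for 16 h before livers were taken on day 30. Neither group is a lean or an unfasted baseline, and the labels name no inflammatory stimulus, so levels here describe fasted livers under fat-rich feeding. Each mouse gave 1 array, and the labels call the mice biological replicates.

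The acute phase response is the shift in secreted proteins that hepatocytes make when cytokines report infection or injury. IL-6 binds its receptor Il6ra with the shared signalling chain Il6st, which activates the transcription factor Stat3, and Stat3 induces its own brake, Socs3. Interleukin-1 acts through Il1r1 and its partner Il1rap, and oncostatin M through Osmr and Il6st. The C/EBP factors Cebpb and Cebpd work with Stat3 and NF-kB at acute phase promoters. In mice the serum amyloids Saa1 and Saa2 are among the most strongly inducible secreted products, whereas Crp, a major acute phase protein in humans, responds little. Albumin, transthyretin and fetuin-A (Alb, Ttr and Ahsg) are negative acute phase proteins, which decline while the others increase.

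The proximal promoters of the 4 serum amyloid genes are shown first, because Saa1 and Saa2 moved together more closely than Saa1 did with any other gene tested. Each window holds the 250 bases before the annotated gene start in RefSeq's GRCm38.p6 annotation, 5′ to 3′ in the direction of the gene. Saa1 lies at chr7:46742981-46743230 on the minus strand, Saa2 at chr7:46751583-46751832 on the plus strand, Saa3 at chr7:46715677-46715926 on the minus strand and Saa4 at chr7:46732604-46732853 on the minus strand. Capitals mark matches to the C/EBP letters TTGCNNAA on either strand.
Saa1: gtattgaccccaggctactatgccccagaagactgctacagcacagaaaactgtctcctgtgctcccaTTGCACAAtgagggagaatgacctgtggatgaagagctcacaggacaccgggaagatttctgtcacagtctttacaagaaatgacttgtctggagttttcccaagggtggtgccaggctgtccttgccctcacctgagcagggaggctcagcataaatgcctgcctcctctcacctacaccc
Saa2: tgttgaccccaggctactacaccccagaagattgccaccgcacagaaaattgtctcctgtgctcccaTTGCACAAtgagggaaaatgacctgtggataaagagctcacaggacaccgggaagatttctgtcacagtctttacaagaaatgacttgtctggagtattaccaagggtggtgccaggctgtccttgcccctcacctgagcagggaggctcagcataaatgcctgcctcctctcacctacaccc
Saa3: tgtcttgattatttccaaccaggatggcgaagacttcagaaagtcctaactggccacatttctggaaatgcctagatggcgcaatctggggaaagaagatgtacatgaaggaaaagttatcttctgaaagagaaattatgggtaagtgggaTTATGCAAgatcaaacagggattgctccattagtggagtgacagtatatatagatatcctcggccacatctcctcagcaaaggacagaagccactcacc
Saa4: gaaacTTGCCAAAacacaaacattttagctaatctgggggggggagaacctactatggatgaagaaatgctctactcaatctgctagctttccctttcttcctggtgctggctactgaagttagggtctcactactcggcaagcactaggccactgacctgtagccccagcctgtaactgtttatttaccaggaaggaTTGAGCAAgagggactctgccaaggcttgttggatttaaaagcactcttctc
In a global alignment Saa1 and Saa2 shared 238 identical bases, 95.2% of 250, while the other pairs shared 55.6% to 61.6%. Both hold the same match, TTGCACAA, which starts 182 bases before the gene in Saa1 and 183 in Saa2. Saa3, which is expressed by macrophages and adipocytes as well as liver, has a minus-strand match 99 bases before its start. Saa4, a constitutively made liver form, has a plus-strand match at 245 bases and a minus-strand match at 52.

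Such a C/EBP match occurred in 9.56% of 32851 RefSeq promoter windows of this length and in 14 of the 28 listed genes that had an entry. The letters of an NF-kB site, GGGA and CC with any 4 bases between them, occurred in 17.6% of all windows and in 8 of the 28 genes, among them Cebpb, Il6ra and Socs3. STAT letters, TTCNNNGAA, occurred in 7.02% of all windows and in Apcs, Itih4, Socs3 and Steap4. TATA letters, TATAAA, occurred in 12.4% of all windows and in 5 of the 28 genes, Crp among them. Both strands were searched for every motif, no match of one motif overlapped a match of another in the listed genes, and a match describes letters in a window, not binding.

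The deposited values are on a log2 scale on which differences between mice are heavily compressed. The median SD over the 20 mice was 1.48e-05 for the genes tested, so a difference cannot be read as a fold change of RNA. Diet differences are therefore given as Hedges' g, the difference of means (MSXH minus HFD) in units of the pooled SD with a small-sample correction. The level of each probe set is compared only with itself, and ranks of SD over genes only describe the deposited values. Array medians spanned 0.000176. The liver label was borne out by hepatocyte markers, of which 9 of 9 with a probe set passed the filter (mean level 13.58 to 13.59 in MSXH and 13.58 to 13.59 in HFD livers). Neutrophil and monocyte markers had 4 of 11 above the filter, and S100a8, S100a9, Ngp, Ltf, Camp and Mpo lay below it.

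On the deposited scale, the serum amyloids Saa1 and Saa2 were among the genes that varied most between mice. Saa1, which coats high-density lipoprotein in inflammation, had its lowest, median and highest levels at 9.418, 9.456 and 9.482 in MSXH livers, against 9.436, 9.451 and 9.520 in HFD livers. HFD mouse 6 was the highest of all, HFD mouse 8 came next and MSXH mouse 10 was the lowest, and the groups overlapped over most of their range. Saa2 ran over 7.909, 7.939 and 7.965 in MSXH livers, against 7.921, 7.937 and 7.992 in HFD livers. HFD mouse 6 was again the highest and MSXH mouse 10 again the lowest. The SD of Saa1 over the 20 mice, 0.0249, stood at percentile 99.8 of the genes tested and was 1680 times their median SD. On this compressed scale a large SD need not mean more variable RNA.

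Other listed genes had a wide spread as well. Lcn2, an iron-siderophore-binding protein of innate defence, had an SD of 0.023 and levels of 6.438, 6.455 and 6.481 in MSXH livers, against 6.427, 6.456 and 6.529 in HFD livers (lowest, median, highest), with HFD mouse 9 far above the rest. The interleukin-1 receptor Il1r1 had an SD of 0.0135 (percentile 99.6) and Cebpd one of 0.0108 (percentile 99.4). In all, 11 of the 33 tested genes were at or above the 95th percentile of spread. The very abundant secretory transcripts Alb, Ttr, Ambp, Cp and Ahsg were below the 5th, which on this compressed scale need not mean steadier RNA. In SD units the mice are spread widely within both diets in the plot by mouse.

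**Figure D1:**
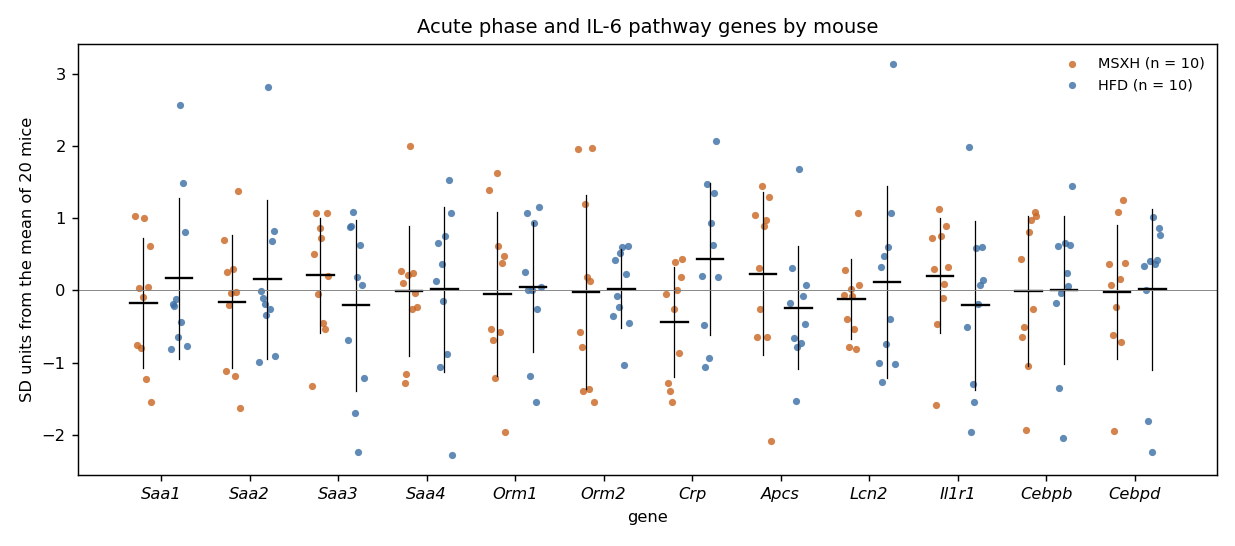
Levels of 12 genes in each mouse, in SD units from the mean of all 20 mice (vertical axis), with MSXH (orange) left of HFD (blue) for each gene on the horizontal axis. Horizontal bars are group means and vertical lines 1 SD (n = 10 mice each). HFD mouse 6 is highest for Saa1 (2.57) and Saa2 (2.82), and HFD mouse 9 for Lcn2 (3.14), while the means of the 2 diets lie within the spread of the mice for every gene shown.

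The comparison of the diets asked whether the extract altered these genes during fat-rich feeding. None of the 33 tested genes differed between MSXH and HFD with limma, a linear model with variances moderated over all genes, after Benjamini-Hochberg adjustment over 11728 genes. Their adjusted p was 0.9998, and the share of all genes called was 0%. At an unadjusted p under 0.05, 1 of the 33 was called, Crp, which lay lower in MSXH, against 3.62% of all genes in either direction and 1.74% called lower. A Wilcoxon rank-sum test called 0 of the 33 against 3.4%. Of the 33, 19 lay lower and 14 higher in MSXH, where 50.6% of all genes lay lower. Their median g was -0.0261, and that of all genes -0.00692. Scaling moved that split: with all arrays set to one median, 6 of the 33 lay lower and 27 higher, and with quantile normalization 10 lay lower and 9 higher of the 20 genes that could be fitted. Within each of the 34 measured genes the 2 groups overlapped. In bulk liver, fewer cells of a type and less RNA per cell cannot be told apart.

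The gene with the smallest p was Crp, a pentraxin that binds phosphocholine on microbes and dying cells. Its lowest, median and highest levels were 12.47905, 12.47913 and 12.47916 in MSXH livers, against 12.47908, 12.47916 and 12.47926 in HFD livers. All but 1 of the 10 MSXH mice lay below the HFD median, although the lowest HFD mice overlapped the MSXH range. For Crp g was -0.913 (95% interval -1.83 to 0.0084, two-sided permutation p = 0.0491, Wilcoxon p = 0.0524, limma adjusted p = 0.9998). The unadjusted call was lost without any 1 of MSXH mice 2, 3, 4, 5 and 8 or of HFD mice 4, 6, 7, 8 and 9. Apcs, the other pentraxin and the mouse's classical acute phase pentraxin, had g of 0.451 (-0.437 to 1.34).

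Among the secreted proteins, the serum amyloids had g of -0.319 for Saa1 (-1.20 to 0.563, permutation p = 0.472), -0.293 for Saa2, 0.397 for Saa3 and -0.0261 for Saa4. The orosomucoids, acute phase lipocalins that bind drugs and lipids, lay close together at -0.0915 for Orm1, -0.0436 for Orm2 and -0.091 for Orm3. Scavengers of haem and iron ranged from -0.306 for Cp, the copper oxidase ceruloplasmin, to 0.208 for Hpx, which binds free haem. Hp, which binds haemoglobin, had g of -0.131 and Lcn2 -0.224. The inter-alpha-trypsin inhibitor chains, which link to hyaluronan, ranged from -0.269 (Itih3) to 0.309 (Itih4), and Ambp, the precursor of their light chain bikunin, had g of 0.0647. None of these intervals excluded 0, and the orosomucoids turned positive with arrays shifted to the same median (0.0197 to 0.216). The other probe sets of Cp had g from -0.506 to 1.05.

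Lbp, which carries endotoxin to its receptor, had g of 0.129, the endotoxin co-receptor Cd14 -0.125, the iron and copper reductase Steap4 0.0877 and the leucine-rich glycoprotein Lrg1 -0.181. Of the 5 receptor genes, 4 lay nominally higher in MSXH, with Osmr at 0.447 (-0.44 to 1.33), Il1r1 at 0.397, Il6st at 0.24 and Il1rap at 0.24. Il6ra was at -0.00308, and with quantile normalization 2 of 4 receptors lay higher. Another Il1rap probe set above the filter had g of -0.736 (-1.64 to 0.17). Stat3 had g of 0.0593, Cebpb -0.00852 and Cebpd -0.0326. Socs3, the feedback inhibitor, had g of -0.336 (-1.22 to 0.547). The negative acute phase genes split, with Ahsg at -0.782 (-1.69 to 0.127, permutation p = 0.0849), Ttr at -0.0949 and Alb at 0.403, although all 3 lay higher with arrays shifted to the same median. For genes with so small an SD as Ahsg, limma's variance is moderated towards that of other genes, and its unadjusted p was 0.341. Alb and Ttr ranged over only 2.1e-07 and 2e-07 across the 20 mice, so their g rests on very small differences in the deposited values.

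**Figure D2:**
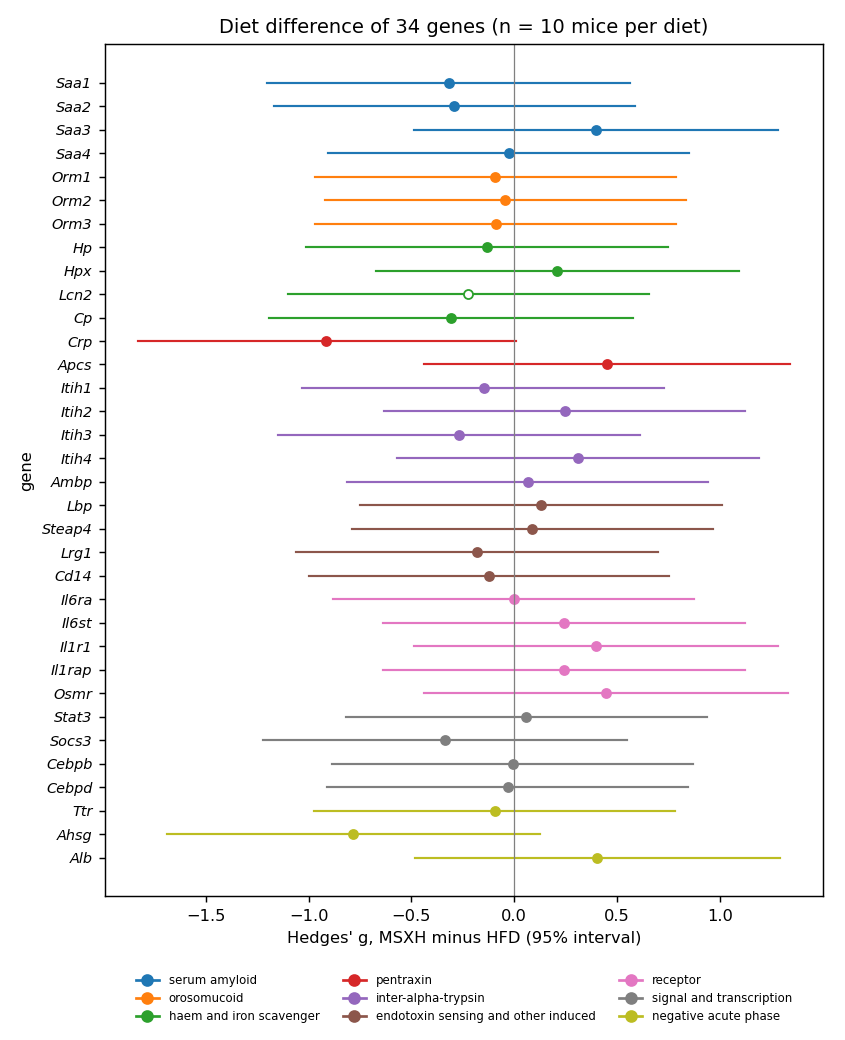
Hedges' g of the diet difference (MSXH minus HFD, horizontal axis, in SD units) for 34 genes ordered and coloured by role, with 95% intervals from 10 mice per diet. The open circle is Lcn2, which was not tested. Every interval includes 0, Crp reaches lowest at -0.913 and Apcs highest at 0.451.

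The second question was which of these genes varied together from mouse to mouse within the diets. Levels were centred on each diet's mean and set against Saa1 over the 20 mice with Pearson's r, Spearman's rho and 100000 permutations within diet, whose smallest possible p is 1e-05. All genes were tested in limma with Saa1 and diet as terms. Past an adjusted p of 0.05 there was 1 of 32 listed genes, Saa2, which was also the only gene called among 11727 (0.00853%). Saa2 had r = 0.927 and rho = 0.941 with Saa1 (permutation p = 1e-05 for both, limma adjusted p = 6.9e-05). The r was 0.898 without HFD mice 6 and 8, which lay farthest from the median of Saa1, 0.884 within MSXH and 0.957 within HFD. The Saa2 probe set belongs to a class whose probes may match other sequences, and the 2 genes are close copies, so the arrays may not separate them fully.

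At an unadjusted p under 0.05, 6 of the 32 listed genes varied with Saa1, all upwards, where 3.11% of all genes did so upwards and 5.31% in either direction. They were Saa2, Orm2, Apcs, Saa4, Orm1 and Lrg1, all secreted products of hepatocytes. A rho of 0.5 or more was found for 4 of 32, against 1.59% of all genes. A positive rho was found for 22 of 32, against 56.2% of all genes, with a median rho of 0.216 in the list and 0.0391 in all genes.

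After Saa2, Orm2 had the highest rho with Saa1 in the list, with r = 0.636 (permutation p = 0.00076) and rho = 0.705, and r was 0.758 without the 2 farthest mice. MSXH mouse 10 had the lowest Orm2 level as well as the lowest Saa1 and Saa2 levels, whereas HFD mouse 6, the highest for Saa1, lay only 0.6 SD above the mean for Orm2. Orm1 had r = 0.560 and rho = 0.556, and Orm3 r = 0.367 and rho = 0.490. Saa4 had r = 0.585 and rho = 0.668, and Apcs r = 0.614 and rho = 0.47. Lrg1 had r = 0.485, which dropped to 0.239 without the 2 farthest mice. Lcn2, under the filter, had r = 0.488 and rho = 0.561. With arrays shifted to the same median, r with Saa1 was 0.927 for Saa2, 0.593 for Apcs, 0.583 for Orm2 and 0.570 for Saa4, but 0.074 for Orm1 and -0.038 for Lrg1.

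On the deposited scale Saa3 did not follow the other inducible serum amyloids closely, with r = 0.278 (permutation p = 0.272) and rho = 0.344 against Saa1. With arrays shifted to the same median r was -0.080. Its SD of 7.99e-05 lay below the 0.000176 spanned by the array medians, so its relation to Saa1 is not settled. With Saa3 in place of Saa1 in limma, 0 genes and 0 listed genes passed, and 0 listed genes had an unadjusted p under 0.05. However, Alb had r = 0.589 with Saa3 (permutation p = 0.0108), and its SD of 4.97e-08 is so small that limma could hardly call it. The 0 therefore says little of Alb, Ttr, Ambp, Cp and Ahsg, the listed genes with the smallest SDs. No receptor or signalling gene had an unadjusted limma p under 0.05 with Saa1. The r was -0.035 for Il6st, -0.091 for Stat3, -0.324 for Socs3, 0.208 for Cebpb and 0.404 for Cebpd (permutation p = 0.0897). Il1r1 had rho = 0.444 (permutation p = 0.0586) and Il6ra rho = 0.343. For Hp the diets differed in sign, r being -0.329 within MSXH and 0.689 within HFD, a difference that was not tested.

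**Figure D3:**
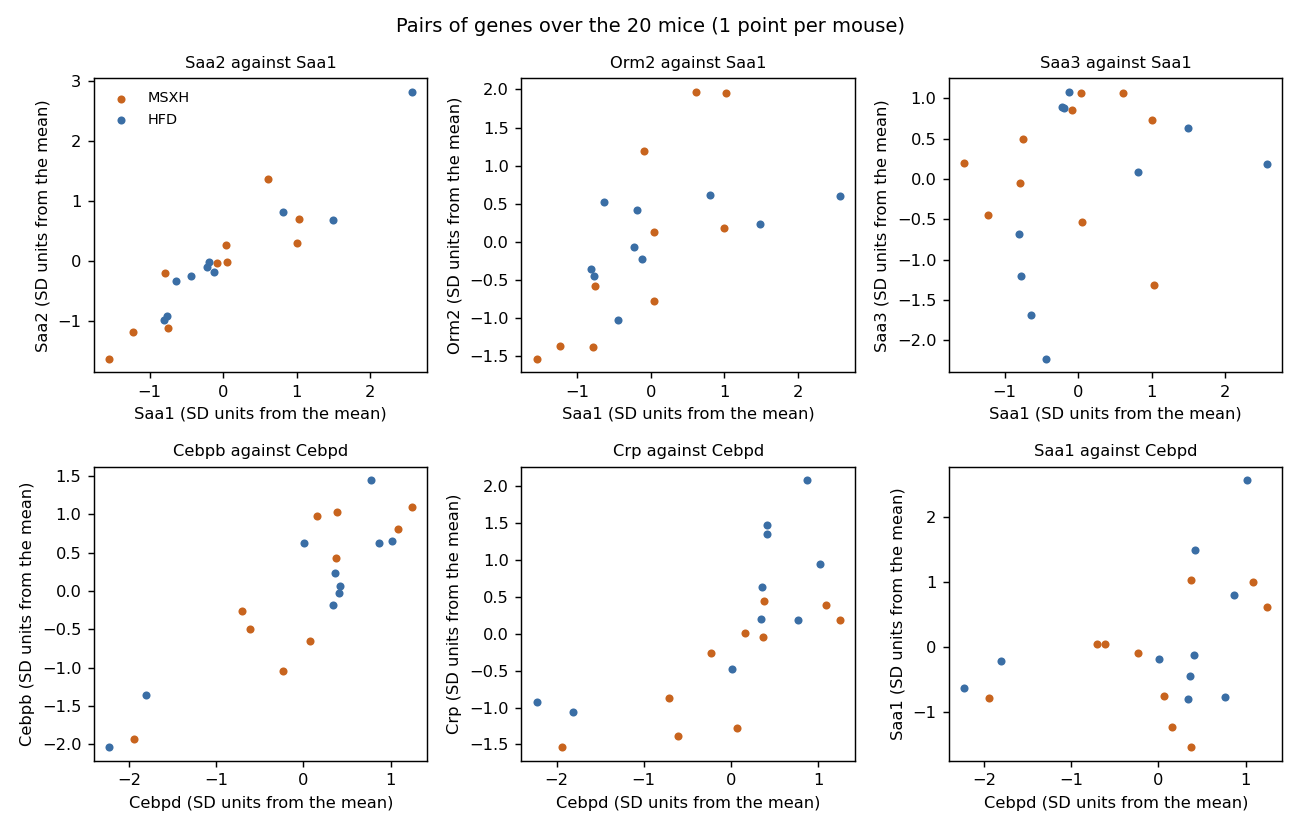
Each point is 1 mouse (MSXH orange, HFD blue), with both axes in SD units from the mean of the 20 mice. The upper row sets Saa2, Orm2 and Saa3 against Saa1 (r = 0.927, 0.636 and 0.278 with diet means removed), and the lower row sets Cebpb, Crp and Saa1 against Cebpd (r = 0.882, 0.792 and 0.404). HFD mouse 6 stands at the top right of the first panel. HFD mouse 5, MSXH mouse 4 and HFD mouse 3 stand at the lower left of the Cebpb and Crp panels. In the last panel these mice are at the left, but at -0.64, -0.79 and -0.22 SD for Saa1.

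Genes outside the list had coefficients as high. Among all genes, 8 had a rho with Saa1 above that of Orm2, Saa2 and genes outside the list. Brf1, a subunit of an initiation factor of RNA polymerase III, had rho = 0.874, Srek1, a splicing regulator, 0.767, and Rabepk 0.734. Herpud1 of endoplasmic reticulum stress had rho = 0.729, Ftsj3 0.719, Aqp3 0.710 and Ficd, which modifies the chaperone BiP, 0.704. The most negative were Samd14 at -0.701 and Brap at -0.695. None of these passed in limma, with an adjusted p of 0.395 for Srek1 and 0.666 for Rabepk.

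Cebpd was then used as a second anchor, a choice made after the values had been seen, because it varied widely and was not called with Saa1. Its lowest, median and highest levels were 7.969, 7.991 and 8.003 in MSXH livers, against 7.966, 7.994 and 8.001 in HFD livers. HFD mice 5 and 3 and MSXH mouse 4 lay well below the others, at -2.23, -1.81 and -1.94 SD from the mean. Past an adjusted p of 0.05, 6 of 32 listed genes varied with Cebpd, against 5.36% of all genes (3.52% upwards and 1.83% downwards). At an unadjusted p under 0.05 there were 12 of 32, against 20.4% of all genes, 9 of them upwards.

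The 6 genes included both a transcription factor and a receptor of the pathway. Cebpb, the related C/EBP factor, had r = 0.882 and rho = 0.829 with Cebpd (permutation p = 1e-05 for r, limma adjusted p = 0.000307). Il6ra had r = 0.806 (adjusted p = 0.00371) and Crp r = 0.792 (adjusted p = 0.00496). Both genes of endotoxin binding were called as well, Cd14 with r = 0.735 (adjusted p = 0.0131) and Lbp with r = 0.723 (adjusted p = 0.0158). Steap4 ran the other way with r = -0.649 (adjusted p = 0.0438). Il1r1 (r = 0.618, adjusted p = 0.0614) and Socs3 (r = -0.607, adjusted p = 0.0692) did not pass.

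The calls depended in part on the mice with low Cebpd. Without HFD mouse 5 alone, 3 listed genes and 306 genes in all passed, and without HFD mouse 3 alone 265 genes in all. Without HFD mouse 5 and MSXH mouse 4, the 2 farthest from the median of Cebpd, r was 0.774 for Cebpb, 0.734 for Crp, 0.709 for Il6ra, 0.618 for Lbp, 0.605 for Cd14 and -0.415 for Steap4. In that fit 2 listed genes, Cebpb and Crp, and 159 genes in all passed. With arrays shifted to the same median r was 0.876 for Cebpb, 0.703 for Lbp, 0.503 for Cd14 and -0.675 for Steap4, but 0.071 for Crp, which was no longer called. Il6ra was still called (adjusted p = 0.00373). However, that fit called 9787 genes in all, against 628 on the deposited scale, so a call there says little. The serum amyloids and orosomucoids were not called with Cebpd, with r of 0.404 for Saa1, 0.400 for Saa4, 0.278 for Saa2, 0.243 for Orm2 and 0.136 for Saa3. For Saa1 this was fixed by the choice of Cebpd as a gene not called with it, and Saa2 moved closely with Saa1. The anchors therefore cannot show that these are separate groups of genes. Genes that glucocorticoids induce moved with Cebpd in the same mice. In that list 7 of 8 tested genes passed upwards, against 3.52% of all genes. Among the 7 were Tat with r = 0.928, Tsc22d3 with 0.905 and Sgk1 with 0.857, while Klf9 did not pass with r = 0.416. Their part in the result was not tested. With Saa1, 0 of these 8 passed, and Dusp1 had an unadjusted p of 0.0468.

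**Figure D4:**
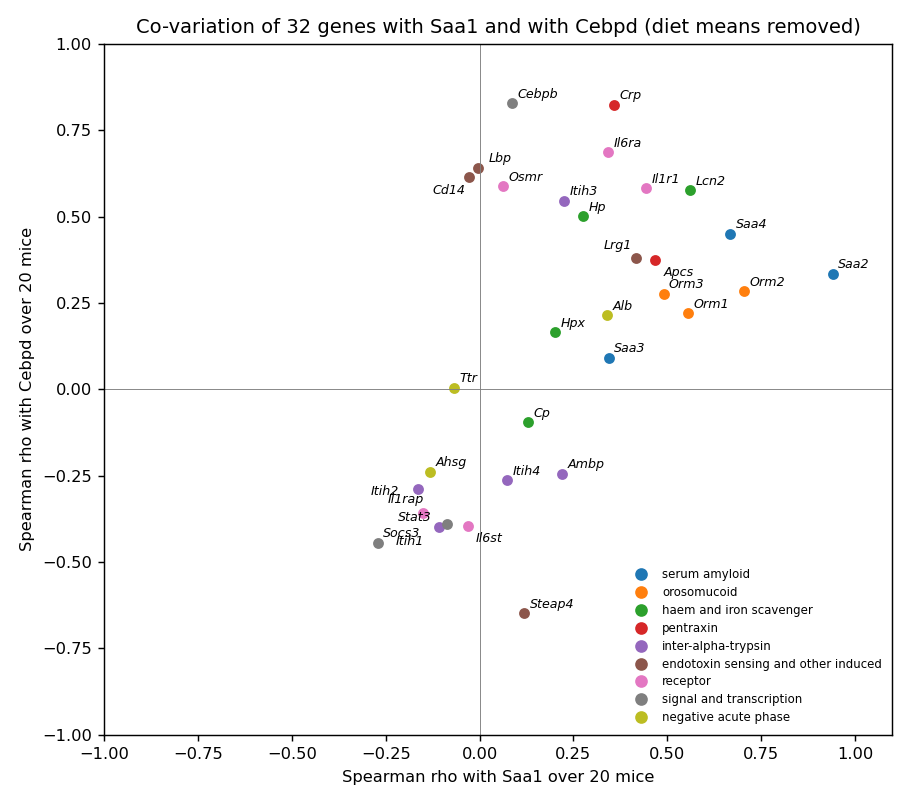
Spearman rho of 32 genes with Saa1 (horizontal axis) and with Cebpd (vertical axis) over the 20 mice with diet means removed, coloured by role. Saa2 (0.941), Orm2 (0.705) and Saa4 (0.668) lie farthest right, Cebpb (0.829) and Crp (0.824) highest, and Steap4 (-0.648) lowest.

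On the deposited scale, other pairs of listed genes were closely tied without either anchor. Over 561 pairs of 34 genes, 118 (21%) had a permutation p for rho under 0.05, 91 of them positive. The share of all pairs of genes at that p was not computed, so the 21% has no background to be read against. Over the 528 pairs of tested genes, a rho of 0.5 or more was found in 13.1%, against 5.21% of all pairs of genes, and a rho of -0.5 or less in 3.98%, against 3.61%. These pairs share mice and genes, so they are not independent. Pairs without an anchor were not computed under another scaling. Hp, Itih1, Itih2, Itih3 and Stat3 had SDs of 1.1e-05, 8.65e-06, 7.45e-05, 4.32e-06 and 1.54e-05, below the 0.000176 spanned by the array medians. How far such pairs and these shares depend on the scaling was not tested.

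Itih3 and Il1r1 had the highest rho after Saa1 and Saa2, 0.896 (r = 0.791, and 0.841 with the 2 mice most extreme for Itih3 left out). Orm1 and Orm2 had rho = 0.842 (r = 0.815), and Saa4 and Lrg1 rho = 0.788 (r = 0.822, with 0.670 within MSXH and 0.905 within HFD). Il6ra and Cebpb had rho = 0.802. Hp and Lbp had rho = 0.789 and Hp and Crp rho = 0.752, and both Lbp and Crp were among the genes that varied with Cebpd. Hp itself had r = 0.483 with Cebpd, which did not pass (adjusted p = 0.202).

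Some pairs ran in opposite directions on the deposited scale. With arrays shifted to the same median, Hp and Itih2 had nearly the same r with Saa1 (-0.459 and -0.446). The sign of their own pair is therefore not settled. Lbp and Steap4 had rho = -0.786 (r = -0.768, and -0.791 with the 2 mice most extreme for Lbp left out), and Hp and Itih2 rho = -0.779 (r = -0.836, with -0.925 within MSXH and -0.822 within HFD). Hp and Socs3 had rho = -0.689. HFD mouse 5, lowest for Cebpd, had the highest Socs3 level, 3.0 SD above the mean. Among the inhibitor chains, Itih1 had rho of 0.636 with Itih4, 0.510 with Itih2 and -0.162 with Itih3. Itih1 also had rho = 0.702 with Stat3. Stat3 and its target Socs3 had rho = 0.257 (permutation p = 0.281).

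**Figure D5:**
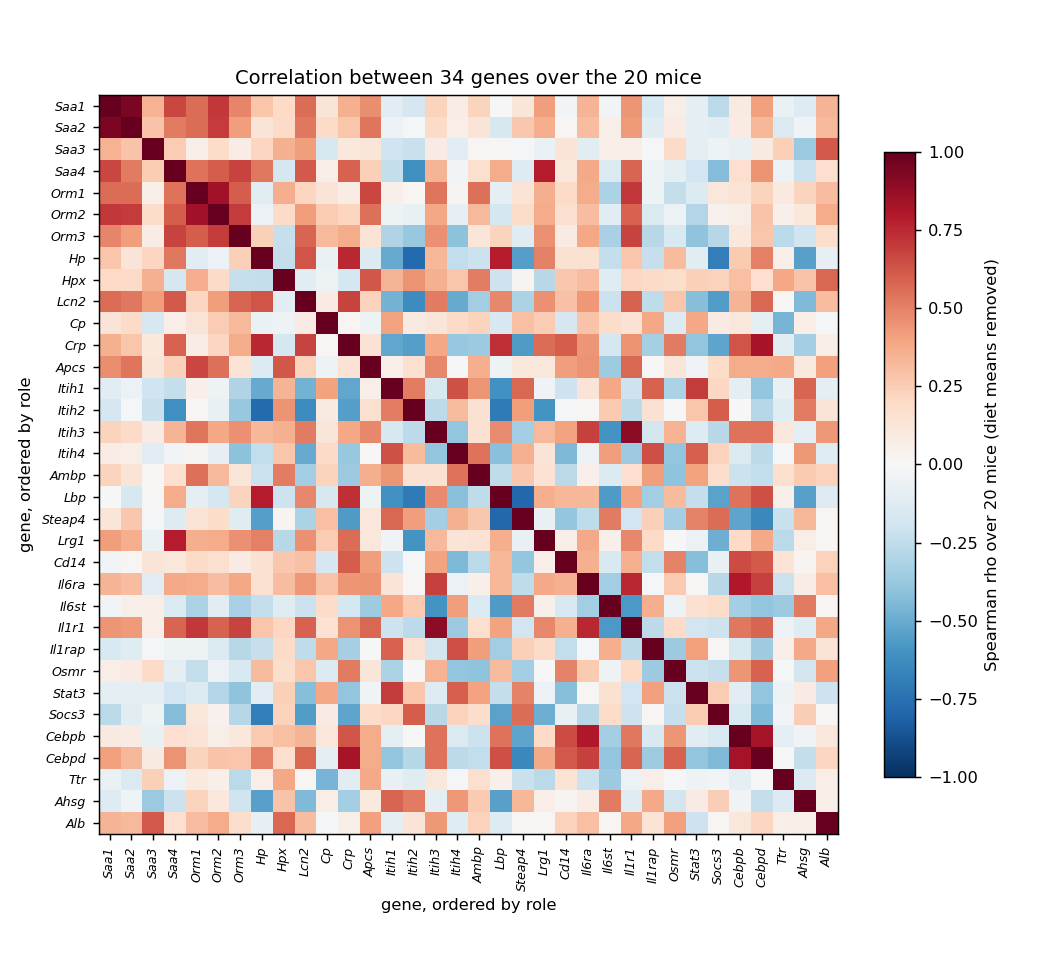
Spearman rho between 34 genes over the 20 mice on the deposited scale, with diet means removed. Genes are in the same order of role on both axes (red positive, blue negative). The serum amyloids other than Saa3 and the orosomucoids form a red block at the upper left. Hp, Crp, Lbp and Cebpd are positive with each other and negative with Steap4 and Socs3.

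Repeat probe sets bear on how far a single probe set can be trusted. There were 15 listed genes with several probe sets and 32 further probe sets, of which 14 had a g of the same sign as the one used. Of 24 that lay above the filter, 21 correlated positively over the mice with the one used and 13 had a permutation p under 0.05. The pairs were close for Saa1 (r = 0.988), Cebpb (0.960), Saa4 (0.952) and Socs3 (0.944 and 0.874). For Lbp r was 0.844 and for Steap4 0.827. Of the 11 without such a p, 6 were of Cp, whose 7 other probe sets ran from -0.104 to 0.710. The others were of Stat3 (-0.031), Il1rap (0.242), Il6st (0.278) and Ttr (0.239 and 0.287). Over the 66 probe sets of the listed genes, 4 had an unadjusted p under 0.05 for the diet, against 4.46% of all probe sets, 1 each of Crp, Cp, Il1r1 and Il1rap. Those of Cp (g of 1.05, 0.111 to 1.98) and Il1rap (-0.954, -1.88 to -0.0293, under the filter) ran opposite to the probe sets used. That of Il1r1 (1.13, under the filter) had the same sign as the one used.

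Upstream and neighbouring genes of the pathway showed little that followed either the diet or Saa1. Of 13 cytokine genes listed, 11 had a probe set and 6 lay above the filter, while Il6 (mean level 5.52) and Tnf (6.47) lay below it. Il1b had g of -1.40 (-2.38 to -0.425, limma unadjusted p = 0.0036), and no other cytokine gene had an unadjusted p under 0.05 for the diet. Among 19 other receptors and signal proteins, Pias3, an inhibitor of Stat3, had g of 1.01 (0.0805 to 1.94). Among 10 other transcription factors none had an unadjusted p under 0.05 for the diet. Of 16 other positive acute phase genes, 12 lay lower in MSXH (median g of -0.142), and 1, the chemokine Cxcl1, had an unadjusted p under 0.05 with g of 1.08. Of 10 other negative acute phase genes, 6 lay lower (median g of -0.0747), and of 8 glucocorticoid-induced genes 4 did. None of these passed after adjustment over all genes, for the diet or with Saa1. Ly96, the endotoxin receptor's partner, had r = 0.475 with Saa1 (permutation p = 0.041) and 0.294 without the 2 farthest mice.

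With Cebpd, 2 of the 16 other positive acute phase genes passed upwards, Mt1 (r = 0.768) and Serpina3n (r = 0.640), against 3.52% of all genes. Of the 10 other negative acute phase genes 2 passed downwards, Igfals (r = -0.668) and Serpina6 (r = -0.691), against 1.83%. Neither list ran in a single direction. The positive genes Fgg (r = -0.653, limma adjusted p = 0.0503) and Mbl2 (r = -0.625) ran downwards. Among the negative genes Rbp4 (r = 0.609, permutation p = 0.00742) and Apoa1 (r = 0.574, permutation p = 0.0138) ran upwards, and none of these passed. In limma the adjusted p was 0.48 for Rbp4 and 0.973 for Apoa1. Its moderation can hold back genes of very small SD, so the lack of a call does not show the lack of a tie. Cish, a brake on cytokine receptors that use STAT5, passed downwards (r = -0.727), as did Il1a (r = -0.666). Nfkbia, the inhibitor of NF-kB, passed upwards (r = 0.680) and Nr3c1, the glucocorticoid receptor, downwards (r = -0.669).

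Markers of other cells were examined because Saa3, Cd14 and Lcn2 are also made outside hepatocytes. Of 12 Kupffer cell and macrophage markers, 9 lay lower in MSXH (median g of -0.136), and their mean level ran from 8.534 to 8.535 in MSXH and from 8.534 to 8.535 in HFD livers. With Saa1, 10 of these 12 had a positive rho (median 0.141) and 0 an unadjusted p under 0.05. The 4 neutrophil and monocyte markers tested had no positive rho with Saa1. Over all 11 with a probe set the mean level ran from 6.6454 to 6.6457 in MSXH and from 6.6454 to 6.6457 in HFD livers. Sinusoidal endothelial markers lay higher in MSXH in 6 of 6 genes (median g of 0.454), none with an unadjusted p under 0.05. The directions of these marker lists, and of the other pathway lists, are on the scale as deposited and were not computed under another scaling. Of the 5 stellate markers, Des was lower with Saa1 (r = -0.584, and -0.143 without the 2 farthest mice). Adipocyte, lymphocyte, bile duct and red cell markers had 3, 3, 2 and 2 genes above the filter and none with an unadjusted p under 0.05 for the diet or with Saa1. With Cebpd, 2 of 9 hepatocyte markers passed upwards, Tat and Cps1 (r = 0.822), as did 1 of 3 adipocyte markers, Cidec (r = 0.709). Downwards, 1 of 5 stellate markers passed, Lrat (r = -0.742). Of all genes 3.52% passed upwards and 1.83% downwards. As a measure of RNA integrity, the difference of the actin control's 3' and 5' probe sets had r = -0.268 with Saa1 (permutation p = 0.262) and rho = -0.420 (permutation p = 0.0728). The part of these in the results was not tested.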

How the data were processed

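Liver RNA of 20 mice, 10 per diet, was measured with 1 array per mouse. The authors made biotin-labelled RNA from 200 ng of total RNA with a 3' IVT kit, per the labels' protocols. The authors deposited 1 value for each of 45101 probe sets, here read as log2 because the top value (14.96) is above what a 16-bit scanner reading gives as a natural log (11.09) or log10 (4.82). The sources used here give neither their background correction, summary and normalization nor signal over background. Precision is limited by the number of arrays. Control probe sets (64) were dropped, and the others named 1 gene (34945), several (932) or none (9160). Gene numbers of 34741 were found in the reference gene table. No pair of arrays was identical.

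The listed genes and the lists of pathway genes and cell type markers were chosen with earlier results of these data known. The text names all listed genes, up to 3 genes of each other list with the smallest diet p and up to 3 with the largest rho with Saa1, and genes from the 10 highest and 5 lowest rho outside the list. Other genes of those lists that passed with Cebpd, or ran against those that did, were named after their values were seen. Cebpd was also chosen after its values were seen. Genes were filtered at the median of the probe set means (6.505). Fits used limma 3.58.1 in R 4.3.3 (lmFit, eBayes) over all genes, Benjamini-Hochberg adjusted, at a threshold of 0.05. The correlation p-values were not adjusted over the listed genes, and the adjusted p of the limma fit over all genes stands beside them. The procedure was tested on simulated data. Correlations and figures used Python 3.11.15 and matplotlib 3.10.9.

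Same-numbered mice are not paired by the labels, and their deviations correlated from -0.133 to 0.369 (mean 0.053). Alternatives covered scaling, filters, variance model, array weights, tests, replicate block, probe set, anchor gene and leaving out mice.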

Additional observations from a re-analysis of the deposited data

Results flagged for a closer look

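For 6 of 68 combinations of gene and diet, a single mouse stood apart from the rest of its group, and chance gives about 5%, or 3.4. The measure is the gap to the nearest other mouse as a share of the group's range, set against Dixon's 95% critical value. Among MSXH mice it was 0.527 for Saa4 (replicate 6, high) and 0.483 for Itih3 (replicate 5, high). Among HFD mice it was 0.525 for Saa2 (replicate 6, high) and 0.47 for Lcn2 (replicate 9, high). It was 0.514 for Il1rap (replicate 10, low) and 0.476 for Alb (replicate 5, low), both among HFD mice. The deposited levels of Alb ranged over only 2.1e-07 across the 20 mice.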

How the results depend on the processing

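For the diet, 0 genes and 0 listed genes passed in any alternative fit or without any 1 mouse. The 1 listed gene at an unadjusted p under 0.05 became 0 under quantile normalization, under a common median of the arrays, by Wilcoxon test and, added after seeing the data, with each gene scaled to unit SD, and it was 0 to 1 without 1 mouse. The median g ran from -0.093 to 0.0951 without 1 mouse. With the replicate block 0 genes passed and 1 listed gene had an unadjusted p under 0.05. The median there was -0.0245, but of another measure than g. That measure was the mean difference of same-numbered mice over the SD of those differences. A common median shifts whole arrays over a range of 0.000176, beyond the median gene's SD of 1.48e-05, and turned the sign of 13 of 33 listed genes, as quantile normalization did for 7 of 20. It gave a median g of 0.289. The signs of g are therefore not settled.

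With Saa1, 1 gene and 1 listed gene passed, against 0 and 0 with Saa3 in its place (0 listed genes unadjusted). With ranks and with unit SD 0 and 0 passed as well, where r for Saa2 stayed at 0.938 and 0.927 but its adjusted p was 0.555 and 0.798. Ranks and unit SD give all genes nearly the same total variance, and limma's moderation pulls their residual variances together. Even a close correlation can then hardly pass, so these counts of 0 cannot decide whether the call holds. Without the 2 farthest mice 2 genes passed, and with arrays shifted 17 listed genes had an unadjusted p under 0.05, against 6. In the shifted fit r changed sign for 14 of 32 listed genes, and Alb, Ttr, Cp and Itih3 all had r = -0.498. The share of all genes at that p was not computed there. The 17 therefore has no background to be read against and cannot show closer ties of the listed genes to Saa1. Without 1 mouse 1 to 2 genes (2 without HFD replicate 8) and 1 to 1 listed genes passed, and 5 to 9 listed genes had an unadjusted p under 0.05 (9 without MSXH replicate 10).

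With Cebpd, an anchor added after seeing the data, 628 genes and 6 listed genes passed. These were 0 and 0 with ranks and with unit SD, which carry the same limit as with Saa1. With arrays shifted 9787 and 21 passed (21 unadjusted), so most genes were called. Without the 2 farthest mice 159 and 2 passed (7 unadjusted, against 12). With arrays shifted r turned negative for 9 of 32 listed genes. Of these, Alb (-0.630), Ttr (-0.630), Hp (-0.548), Hpx (-0.621) and Itih3 (-0.617) then passed, and Orm1, Orm3, Lrg1 and Saa3 did not (-0.422 to -0.106). Without 1 mouse 265 to 666 genes, 3 to 7 listed genes and 7 to 15 listed genes unadjusted were called. The lowest counts came without HFD replicate 3 (265 genes) and without HFD replicate 5 (306 genes, 3 and 7 listed genes). Apart from the shift of arrays and the limit of ranks and unit SD, the cause was not tested.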
